A study of Mus musculus with 113 samples.

Results

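The 37 transcripts described here are messages that the mouse oocyte makes and leaves to the embryo. They were taken as a fixed list of oocyte genes, all 37 of which were found among the 24006 genes of the files. The question was how far these transcripts are cleared between the 2-cell (2C) and 8-cell (8C) stages, and whether clearance is less complete when the nuclear receptor factor NR5A2 is knocked down or edited. Levels were used as FPKM (fragments per kilobase of transcript, scaled to the mapped fragments of the library) from 92 libraries. The libraries had been made with Smart-seq2, which copies whole transcripts from a few cells. Of the 113 samples of the series, 21 had no FPKM file and were not analysed here.

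All embryos came from superovulated C57BL/6N females mated to PWK/PhJ males, and were injected as zygotes. Pools of embryos formed 32 libraries in 16 groups of 2. At 2C, pools had received 20 µM of Nr5a2 siRNA (Nr5a2 KD) or 20 µM of negative control siRNA (NC). At 4C and at 8C, pools had received siRNAs against Nr5a2, Rarg, Nr1h3 and Nr2c2 together at 5 µM each (4KD) or 20 µM of NC siRNA (4NR NC). The other pools were collected at 8C. They had received 3 of the 4 siRNAs (3KD, with NC at 15 µM, 3NR NC) or 1 siRNA (single KD, with NC at 5 µM, 1NR NC), again at 5 µM for each target. These concentrations are those of the labels, whereas the study's methods name only 20 µM for NC siRNA. The methods give the same concentration of each siRNA for every KD group. The labelled 20 µM of the 2C Nr5a2 KD pools is not named there. Single embryos formed 60 libraries. At each of 2C and 8C there were 8 embryos that had received base editor mRNA (BE), 8 with the guide RNA against Nr5a2 (sg) and 14 with both (BE_sg), each at 100 ng/µl. Editing was designed to put a stop codon into Nr5a2, and BE and sg embryos served together as controls. All embryos were labelled wild type, so an edited embryo was defined by its injection and not by its own genotype. The sources do not say which pools shared mothers, so p-values measure only the spread between these libraries.

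As background, a growing oocyte stores large amounts of messenger RNA and then stops transcribing until after fertilisation. The early embryo runs on this store while its own genome is switched on. Stored messages lose their poly(A) tails and are degraded in waves, through BTG4 and the CCR4-NOT deadenylase, and later with the help of factors that the embryo makes itself. The zona pellucida genes are driven in oocytes by FIGLA, a basic helix-loop-helix factor that binds E-box sequences. NOBOX and LHX8 are homeobox factors of the same programme.

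Promoters are shown for the 2 members whose levels were least reduced and that have an entry in the table (Zp3 and Ddx4) and for 2 that were among the most reduced (Omt2b and Oosp1). Each runs from 250 bases before to 50 bases after the transcription start, in RefSeq's annotation of GRCm38.p6. Capitals mark the E-boxes (CANNTG, which is its own reverse complement). The Zp3 promoter lies at chr5:135979855-135980154 on the + strand, Ddx4 at chr13:112652261-112652560 on the - strand, Omt2b at chr9:78327780-78328079 on the + strand and Oosp1 at chr19:11691002-11691301 on the - strand.
Zp3: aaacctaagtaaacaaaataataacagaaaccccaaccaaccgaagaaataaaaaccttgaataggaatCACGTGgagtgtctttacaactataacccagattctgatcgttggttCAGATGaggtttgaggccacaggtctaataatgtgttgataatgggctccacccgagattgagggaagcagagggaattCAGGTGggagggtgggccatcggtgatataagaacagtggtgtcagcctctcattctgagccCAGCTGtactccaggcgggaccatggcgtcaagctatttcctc
Ddx4: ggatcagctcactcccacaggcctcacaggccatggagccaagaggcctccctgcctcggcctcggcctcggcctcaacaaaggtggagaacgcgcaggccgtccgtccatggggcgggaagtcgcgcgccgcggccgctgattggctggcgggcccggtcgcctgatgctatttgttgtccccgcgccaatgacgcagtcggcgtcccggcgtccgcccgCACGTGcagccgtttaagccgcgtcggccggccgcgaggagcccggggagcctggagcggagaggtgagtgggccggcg
Omt2b: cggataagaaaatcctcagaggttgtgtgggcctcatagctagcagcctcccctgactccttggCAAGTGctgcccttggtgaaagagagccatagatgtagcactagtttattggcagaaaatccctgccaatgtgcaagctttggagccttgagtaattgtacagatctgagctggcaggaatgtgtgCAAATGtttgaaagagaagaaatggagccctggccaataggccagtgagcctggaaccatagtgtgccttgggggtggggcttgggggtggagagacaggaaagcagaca
Oosp1: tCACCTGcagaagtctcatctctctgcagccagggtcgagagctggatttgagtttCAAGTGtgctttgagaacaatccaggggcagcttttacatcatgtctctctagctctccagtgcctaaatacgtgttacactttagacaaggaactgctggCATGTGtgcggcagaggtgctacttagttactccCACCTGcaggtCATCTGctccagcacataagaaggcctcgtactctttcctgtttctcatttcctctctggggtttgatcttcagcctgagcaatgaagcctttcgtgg

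The Zp3 promoter held 4 E-boxes, which began at -181, -134, -55 and 8 relative to the start site, and Oosp1 held 5, the nearest at -48. Ddx4 held 1 and Omt2b held 2. The table covered 28 of the 37 members with 34 promoters. Bcl2l10, Nlrp14, Mos, H1foo, Gdf9, Oas1d, Npm2, Zp1 and Zp2 had no entry. An E-box was found in 88.2% of the member promoters and in 72.3% of all 32851 promoters of this length. The NOBOX element TAATTG, searched on both strands, was found in 11.8% of member promoters and 8.0% of all. The NR5A2 motif AAGGTCA, searched on both strands, was found in 0 of the 34 member promoters and in 4.72% of all. These matches describe the letters in the window and no binding.

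FPKM hold no read counts. They summed to between 265390 and 556462 in pools and between 83392 and 474480 in single embryos, and 5472 to 11921 genes reached 1 FPKM in a library. A relative depth, read from the spacing of the lowest FPKM with the median library set to 1, lay between 0.362 and 1.52. The names inside the files set 3 libraries apart because they give the 4-cell stage against the label. They are 2C sg embryo 8 and 8C BE_sg embryos 13 and 14, and results that rest on them are given with and without them. A list of 8 genes of the 2-cell stage (Zscan4 and Tcstv genes among them) summed to 3.73 FPKM in 2C sg embryo 8, against 109 to 2040 FPKM in the other 15 control embryos at 2C. No library of oocytes or zygotes was used, so deposition by the oocyte was not measured here. Cumulus and granulosa cells could carry RNA into a library. Their 12 markers summed to 4.57 to 51.6 FPKM in 2C controls, 4.34 to 31.1 in 8C controls and 1.03 to 49.4 in 8C BE_sg embryos, and Amhr2 alone reached 1 FPKM in 91 libraries. Tnfaip6 reached 1 FPKM in 20 libraries (at most 9.72 FPKM), Cyp19a1 in 8, Inhbb in 7, Inha in 3 (at most 5.98 FPKM), Inhba in 2, and Ptx3, Fshr and Foxl2 in 1 each. Amh, Has2 and Cd44 reached it in none of the 92.

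In single control embryos nearly all of the oocyte transcripts were lower at 8C than at 2C, and Omt2a and Omt2b, the most abundant, fell the furthest. The summed level of the 37 members was 274 FPKM in the lowest, 11300 in the median and 29200 in the highest of the 16 control embryos at 2C. At 8C it was 50.6, 101 and 291 FPKM. The lowest 2C value belonged to sg embryo 8 with the 4-cell name, and it alone lay within the 8C range, since the next was 4180 FPKM. Members made up 4.2% of the summed FPKM of the median 2C control and 0.0232% at 8C. FPKM are shares of a library, and fewer cells with a transcript cannot be told apart from less RNA per cell. Whether a lower level meant loss of a transcript or loss of its poly(A) tail was not tested.

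In the limma fit of log2(FPKM + 1), 35 of 37 members were called lower at 8C (adjusted p under 0.05) and 0 higher. Their median change was -3.43 on the log2 scale, beside -0.31 for all 12991 genes tested. Stage moved much of the transcriptome, since 72.5% of all genes were called in 1 or the other direction and 43.6% were called lower. With the stricter limits of the study's methods (0.01 for the adjusted p, 2 for the size of the log2 change), 29 members were called lower, beside 10.7% of all genes. The number called lower was 35 without the libraries with a 4-cell name, and 33 and 35 within the 2 editor runs, eBE and BE4. BE and BE_sg libraries were grouped by the editor that their names in the files give. The names of sg libraries give no editor, so their run was inferred from their library numbers. No 2C sg embryo was placed in the BE4 run, where BE embryos alone were the 2C controls. For 9 of 37 members the 16 control embryos at 2C did not overlap the 16 at 8C, and for 21 of 37 when sg embryo 8 was left out. Over all genes, 2.43% and 8.89% were lower without overlap.

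**Figure D1:**
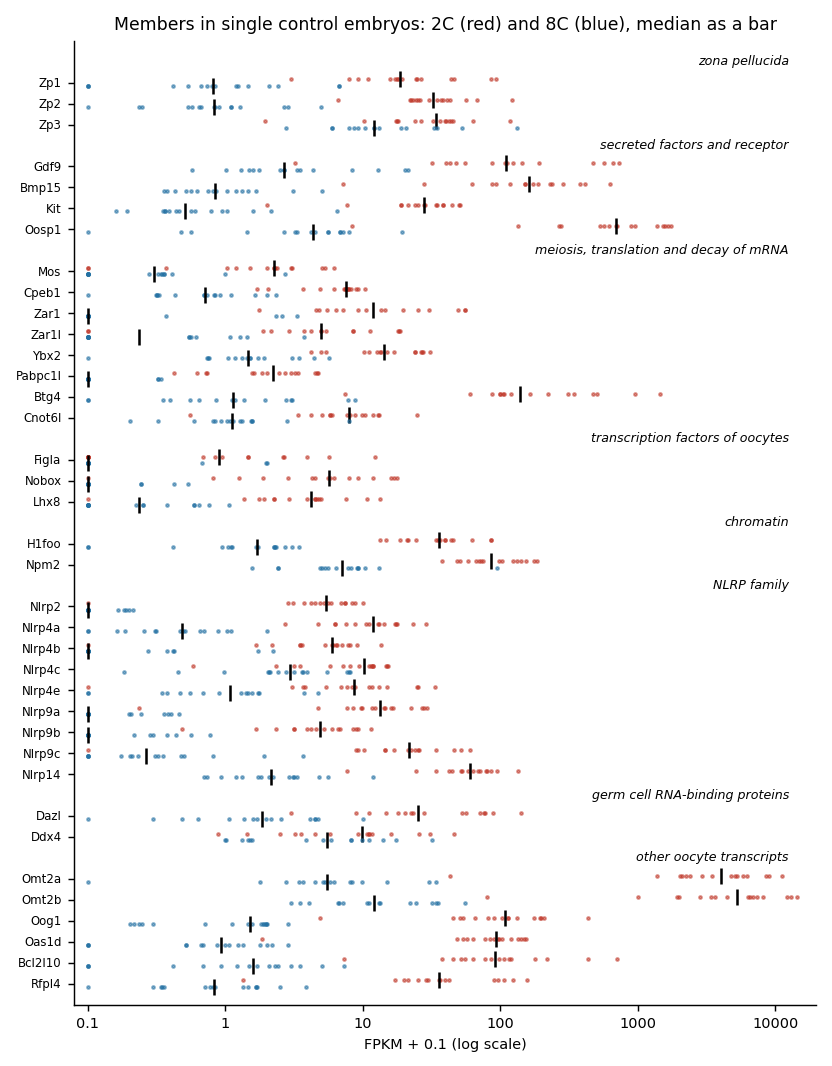
Levels of the 37 members in the 16 single control embryos at 2C (red) and the 16 at 8C (blue), as FPKM + 0.1 on a log axis, grouped by role. Each dot is 1 embryo and each bar a median. Omt2a and Omt2b have the highest 2C medians (4120 and 5390 FPKM), and the clouds of Zp3 and Ddx4 overlap broadly.

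The transcripts of the egg coat proteins differed among themselves. Zp1 and Zp2 encode structural glycoproteins of the zona pellucida. Zp2 ran from 6.55 FPKM through a median of 32.3 to 122 in 2C controls and from 0 through 0.728 to 4.85 at 8C. The stages did not overlap, and Zp2 fell by 4.16 (SE 0.283) on the log2 scale (limma, adjusted p = 8.6e-20). Zp1 fell by 3.43 (SE 0.362, limma, adjusted p = 1.4e-12). Zp3, the zona protein best known as a sperm receptor, ran from 1.83 through 34.1 to 117 FPKM at 2C and from 2.65 through 11.9 to 133 FPKM at 8C. The embryos overlapped over nearly the whole range. The Zp3 difference was -0.86 on the log2 scale (SE 0.448) and was not called (limma, adjusted p = 0.0795). It was called with median-ratio scaling (-1.13, limma, adjusted p = 0.0106) and without the 4-cell-named libraries and those with the lowest FPKM sums (-1.18, limma, adjusted p = 0.00415). The zona itself had been removed before lysis.

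All 4 members of the secreted and receptor group were called lower, by 3.91 to 6.94 on the log2 scale. Oosp1, an oocyte-secreted protein, ran from 8.24 through 700 to 1760 FPKM in 2C controls. At 8C it ran from 0 through 4.21 to 19.2 FPKM. The lowest 2C value was again that of sg embryo 8, and the other embryos did not overlap between stages. The change was -6.94 (SE 0.483, limma, adjusted p = 2.1e-19). Bmp15, a growth factor by which the oocyte instructs granulosa cells, ran from 7.1 through 161 to 628 FPKM at 2C and from 0.256 through 0.737 to 4.94 FPKM at 8C, with no overlap. It fell by 6.14 (SE 0.376, limma, adjusted p = 1.1e-21). Gdf9, its partner growth factor, had a mean of 214 ± 246 FPKM (SD, n = 16) at 2C and 5.49 ± 6.69 FPKM at 8C. Kit, the receptor for the granulosa cell ligand, fell by 3.91 (SE 0.304, limma, adjusted p = 1.7e-17).

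All 8 members that act in meiosis, translation or mRNA decay were called lower. Btg4, the adaptor that brings the deadenylase to maternal messages, ran from 7.36 through 142 to 1460 FPKM in 2C controls and from 0 through 1.04 to 8.61 FPKM at 8C. Apart from sg embryo 8 the stages did not overlap. Btg4 fell by 6.23 (SE 0.500, limma, adjusted p = 5.6e-17). Cnot6l, a catalytic subunit of that deadenylase, was less reduced. It ran from 0.455 through 7.79 to 24.7 FPKM at 2C and from 0.102 through 1.01 to 7.89 FPKM at 8C, so the stages overlapped. Its change was -1.91 (SE 0.271, limma, adjusted p = 8.4e-09). Zar1, Zar1l and Ybx2, which bind and store maternal messages, fell by 3.44, 2.03 and 2.61. Of the others, Pabpc1l, a poly(A)-binding protein of oocytes, fell by 1.52, and Cpeb1, which controls cytoplasmic polyadenylation, by 2.11. Mos, the kinase that holds the egg in metaphase, was already low (mean 2.28 FPKM at 2C) and fell by 1.18.

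Nobox and Lhx8 were called lower (-2.48 and -1.88). Figla had little transcript at either stage. It was listed at 0 in 6 of 16 controls at 2C and in 13 of 16 at 8C, with highest values of 12.1 and 1.92 FPKM. The Figla difference was -0.84 (SE 0.294, limma, adjusted p = 0.00901), and it was no longer called within the eBE run (-0.35, limma, adjusted p = 0.392). Of the chromatin proteins, the oocyte linker histone H1foo fell by 3.88 (SE 0.279) with no overlap of stages. Npm2, a histone chaperone that remodels sperm chromatin, ran from 37.8 through 86.5 to 184 FPKM at 2C. At 8C it ran from 1.47 through 6.95 to 94.6 FPKM, and only sg embryo 7 reached the 2C range. Npm2 fell by 3.48 (SE 0.298, limma, adjusted p = 7.1e-16).

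The 9 genes of the NLRP family, several of which are maternal effect genes, were all called lower, by 1.15 (Nlrp4c) to 4.05 (Nlrp14). Nlrp4c ran from 0.479 through 10.1 to 15.2 FPKM at 2C and from 0.0839 through 2.86 to 8.03 FPKM at 8C. Its embryos overlapped, and the call (limma, adjusted p = 0.00068) was lost within the eBE run (-0.70, limma, adjusted p = 0.11). Nlrp4c and Nlrp4e share 9.52% of the 50-base windows of the Nlrp4c coding sequence, and 8 members in all share such windows with another member (Nlrp4a, 4c and 4e, Nlrp9a, 9b and 9c, and Omt2a with Omt2b). How reads were split between them is uncertain.

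The transcripts of the RNA-binding proteins of the germ line parted ways. Dazl, a translational regulator, ran from 2.91 through 25.4 to 141 FPKM at 2C and from 0 through 1.74 to 10.0 FPKM at 8C, and fell by 3.44 (SE 0.379, limma, adjusted p = 5.6e-12). Ddx4, an RNA helicase that marks germ cells, ran from 0.779 through 9.84 to 46.0 FPKM at 2C and from 0.896 through 5.38 to 31.6 FPKM at 8C. The stages overlapped almost fully. The Ddx4 difference was -0.58 (SE 0.385) and was not called (limma, adjusted p = 0.168); with median-ratio scaling it was (-0.81, limma, adjusted p = 0.0266), as it was without the 4-cell-named and lowest-sum libraries (-0.87, limma, adjusted p = 0.0388).

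The other oocyte transcripts held the highest levels and the largest falls. Omt2b ran from 79.9 through 5390 to 14400 FPKM in 2C controls and from 2.88 through 11.9 to 55.1 FPKM at 8C. Omt2a, its relative, ran from 42.9 through 4120 to 11200 FPKM and from 0 through 5.42 to 34.0 FPKM. Neither gene overlapped between stages. Omt2a fell by 8.78 (SE 0.512, limma, adjusted p = 1.9e-22) and Omt2b by 8.13 (SE 0.497, limma, adjusted p = 1.1e-21). Oog1, Oas1d, Bcl2l10 (a relative of BCL2) and Rfpl4 fell by 5.56, 5.36, 5.27 and 4.33.

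As a measure of clearance, the 8C mean was taken as a share of the 2C mean, called the share left. Such a share cannot tell stored transcripts from transcripts that the embryo made itself. In control embryos the median share over the 37 members was 3.3%, and it ran from 0.196% for Omt2a to 66.0% for Zp3. For 22 of 37 members less than 5% was left and for 9 less than 1%. Low shares were not limited to abundant members, which have more room to fall on the log2(FPKM + 1) scale. Nlrp2, with a mean of 5.45 FPKM at 2C, had 0.514% left, and Gdf9, with 214 FPKM, had 2.56%. More than 20% was left for 3 members, Zp3 (66.0%), Ddx4 (63.2%) and Nlrp4c (39.0%), followed by Cnot6l (17.1%) and Npm2 (12.2%). Mean levels had been at least 1 FPKM for all 37 at 2C, and 16 of 37 were under 1 FPKM at 8C.

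In pools most of the difference from 2C was already present at 4C. The 2C pools came from another experiment than the 4C pools, so that stage and experiment cannot be told apart. Between the 2 NC pools at 2C and the 2 at 4C, 31 of 37 members were called lower and 0 higher in limma, with a median of -2.83 on the log2 scale beside -0.16 for all genes. Of all 13378 genes, 32.9% were called and 19.6% were called lower. By role, all members of the secreted and receptor group, of meiosis, translation and decay, of chromatin and of the other oocyte transcripts were among the 31, as were 7 of the 9 NLRP genes (all but Nlrp4c and Nlrp4e), 2 of 3 zona genes and 2 of 3 transcription factors. Neither germ line RNA-binding protein was. The summed level was 7010 and 17300 FPKM at 2C, 173 and 853 FPKM at 4C, and 75.5 to 146 FPKM (median 120) in 6 NC pools at 8C. From 2C to 8C, 32 of 37 were called lower and 0 higher (median -3.11 beside -0.22), with 48.3% of all genes called and 29.5% called lower.

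Omt2b was at 8140 and 3420 FPKM in the 2C NC pools and at 37.2 and 369 FPKM in the 4C NC pools. In the 8C NC pools it ran from 1.71 through 12.5 to 22.6 FPKM. Each stage lay below the one before without overlap. Gdf9 stood at 101 and 39.6 FPKM, then at 3.25 and 9.61 FPKM, and at 8C it ran from 0.565 through 1.01 to 1.97 FPKM. Npm2 stood at 72.3 and 108 FPKM, then at 5.06 and 20.7 FPKM, and at 8C it ran from 6.37 through 8.16 to 11.3 FPKM, so that its 4C and 8C pools overlapped.

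The members not called by 8C in NC pools were Zp3, Figla, Nlrp4c, Dazl and Ddx4. Zp3 was at 38.9 and 36.5 FPKM at 2C, at 18.1 and 40.8 FPKM at 4C, and ran from 23.5 through 33.3 to 44.8 FPKM at 8C, a difference of -0.19 (SE 0.492, limma, adjusted p = 0.782) from 2C to 8C. Dazl was at 30.9 and 13.5 FPKM, then at 18.5 and 15.1 FPKM, and ran from 4.22 through 7.42 to 11.5 FPKM at 8C (-1.36, SE 0.644, limma, adjusted p = 0.0871). Ddx4 was at 15.0 and 7.78 FPKM, then at 28.2 and 18.4 FPKM, and ran from 3.74 through 7.31 to 9.74 FPKM at 8C (-0.61, SE 0.496, limma, adjusted p = 0.324). Both 4C pools were thus above both 2C pools for Ddx4, a difference of 1.01 that was not called (limma, adjusted p = 0.218). Nlrp4c was at 5.97 and 4.5 FPKM at 2C and ran from 2.98 through 7.89 to 10.5 FPKM at 8C (0.32, limma, adjusted p = 0.621). The difference for Figla was 0.21 (limma, adjusted p = 0.837), with 3 of 6 NC pools listed at 0 at 8C. The share of the 2C mean left over the 37 members had a median of 6.86% at 4C and 3.01% at 8C.

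**Figure D2:**
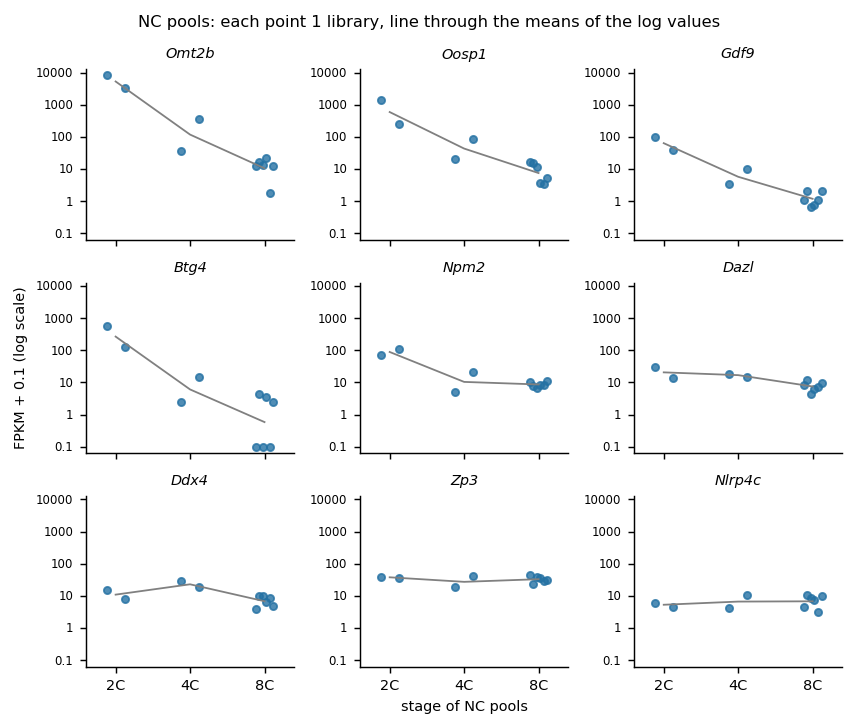
Levels of 9 members in NC pools at 2C (2 libraries), 4C (2) and 8C (6), as FPKM + 0.1 on a log axis. Points are libraries and lines join the means of the log values. Omt2b falls from 8140 and 3420 FPKM to at most 22.6 FPKM, while Zp3 stands at 38.9 and 36.5 FPKM at 2C and at 23.5 to 44.8 FPKM at 8C.

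Within the 4KD experiment itself, 4C and 8C could be compared without that limit. Of the 27 members tested, 0 were called from 4C to 8C in NC pools (limma; 4 at an unadjusted p under 0.05; median -0.57 beside -0.01 for all genes) and 0 in 4KD pools (limma; 4 at an unadjusted p under 0.05; median -0.69 beside -0.01), where 0% of all 10476 genes were called in either. Omt2b differed by -2.98 (SE 1.04, limma, adjusted p = 0.58) in NC pools and by -1.75 (SE 1.04, limma, adjusted p = 0.719) in 4KD pools. It was at 29.1 and 175 FPKM in the 4KD pools at 4C and at 25.4 and 16.7 FPKM at 8C, and the 4C pools of either treatment overlapped. The difference in decline between 4KD and NC was called for 0 of 27 members in limma (0 at an unadjusted p under 0.05), beside 0% of all genes. This experiment called no gene in any comparison, its targeted Nr5a2 included, so that its counts of 0 do not show that levels were alike.

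The targeted Nr5a2 was lower in the single Nr5a2 KD pools at 8C (-2.06, SE 0.35, limma, adjusted p = 0.0115) and differed by -2.25 in 4KD pools, which was not called (limma, adjusted p = 0.38). In BE_sg embryos at 8C its level differed from controls by 0.21 (limma, adjusted p = 0.831), and a level does not show whether an embryo was edited. After knockdown, the summed level of the members stayed low. It was 206 and 493 FPKM in 4KD pools at 4C, where the NC pools had 173 and 853 FPKM. At 8C it was 73.4 to 194 FPKM (median 130) in the 8 pools with other siRNAs than Nr5a2 and 140 to 255 FPKM (median 184) in the 10 pools with Nr5a2 siRNA, next to 75.5 to 146 FPKM (median 120) in NC pools. Zp3 had a mean of 98.4 FPKM in the pools with Nr5a2 siRNA and of 33.6 FPKM in NC pools. Without Zp3 the sum was 53 to 137 FPKM (median 86.8) with Nr5a2 siRNA, 44.1 to 157 FPKM (median 83.2) with other siRNAs and 46.2 to 104 FPKM (median 87.2) in NC pools. In limma 0 of 27 members were called in 4KD pools at 4C and 0 at 8C, each beside 0% of all genes. Without adjustment, p was under 0.05 for 1 member at 4C (Zar1l, 1.18) and for 2 at 8C (Mos, 1.80, and Oosp1, -2.64). The median at 8C was 0.16 beside 0 for all genes.

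The 3KD pools gave 0 of 25 members called in each of the 4 comparisons with limma, with 2 or 3 members at an unadjusted p under 0.05 in each. The median differences were 0.13 for Rarg, Nr1h3 and Nr2c2 siRNAs (beside 0.13 for all genes, 0% called), 0.28 for Nr5a2, Nr1h3 and Nr2c2 (beside 0.12, 0.0565% called), 0.45 for Nr5a2, Rarg and Nr2c2 (beside 0.11, 0.00941% called) and 0.38 for Nr5a2, Rarg and Nr1h3 (beside 0.11, 0% called). These comparisons share their 2 NC pools. Same-numbered pools of this experiment deviated together. When replicate numbers entered the fit as blocks, 0, 45, 35 and 65 genes were called in place of 0, 6, 1 and 0 of 10626, with 0 members among them.

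Single KD at 8C also gave 0 of 23 members called in limma. The median was -0.31 for Nr5a2 KD (beside -0.22 for all genes, 2.75% called, 2 members at an unadjusted p under 0.05), 0.24 for Rarg KD (beside -0.08, 0.00984% called, 1 member), 0.22 for Nr1h3 KD (beside 0, 0.00984% called, 0 members) and 0.09 for Nr2c2 KD (beside -0.24, 0.0787% called, 1 member). At 2C, where Nr5a2 KD had 2 pools against 2, 0 of 36 members were called in limma (2 at an unadjusted p under 0.05), with a median of 0.02 beside 0.23 and 0.0167% of all genes called. The decline from 2C to 8C was called different between Nr5a2 KD and NC for 0 of 37 members in limma ( 2 at an unadjusted p under 0.05, median -0.05 beside -0.36, 0.718% of all genes called). Without 2C NC pool 1, Nobox was called (-1.40, limma, adjusted p = 0.0489). The 2C pools of this comparison had received 20 µM of siRNA, and its 8C pools 5 µM in another experiment. Dose and experiment therefore cannot be told apart from stage in it.

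The 5 members with the largest falls were at most 9.59 FPKM in the Nr5a2 KD pools at 8C, and none was called. Omt2a was at 0.527 and 1.49 FPKM, below the 4.67 and 5.07 FPKM of its NC pools, and the difference of -1.59 was not called (limma, adjusted p = 0.324). Oosp1 was at 0 and 0.809 FPKM, below 3.26 and 5.03 FPKM, a difference of -1.91 that was not called either (limma, adjusted p = 0.165). Bmp15 was at 0.12 and 0 FPKM against 0.55 and 1.63 FPKM (-0.93, limma, adjusted p = 0.278). Omt2b was at 1.84 and 9.59 FPKM against 1.71 and 12.3 FPKM, and Btg4 at 0.972 and 0.458 FPKM against 0 and 2.35 FPKM, so that for these the pools overlapped (-0.13 and -0.11, limma, adjusted p = 0.963 and 0.959). Among genes with a mean of at least 1 FPKM in either group, both KD pools lay below both NC pools for 4 members (Bmp15, Oosp1, H1foo and Omt2a), beside 34.4% of all 9400 genes. They lay above for 4 (Zp2, Zp3, Figla and Dazl), beside 13.4%. Dazl was at 28.8 and 17.9 FPKM in Nr5a2 KD pools, above 6.88 and 9.47 FPKM in their NC pools, and the difference of 1.38 was not called (limma, adjusted p = 0.462). Single Rarg KD pools spread from 3.00 to 43.8 FPKM for Dazl. Ddx4 was at 5.63 and 2.91 FPKM, against 8.49 and 4.90 FPKM, which overlapped.

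Zp3 stood out among the members in pools, and was singled out after its values were seen. At 8C it was at 132 and 81.3 FPKM in Nr5a2 KD pools against 29.3 and 31.2 FPKM in their NC pools. It was at 87.4 and 128 FPKM with siRNAs against Nr5a2, Nr1h3 and Nr2c2, at 111 and 93.0 FPKM with Nr5a2, Rarg and Nr2c2, and at 77.1 and 172 FPKM with Nr5a2, Rarg and Nr1h3, against 37.3 and 35.4 FPKM in the 3NR NC pools. The 8 pools with other siRNAs ran from 11.8 through 35.5 to 63.3 FPKM. In the 3KD and single KD experiments, all 8 pools with Nr5a2 siRNA therefore lay above all 12 pools without it. No other member showed this, and 0.522% of 11105 genes did. In the 4KD experiment the pools overlapped, with 68.2 and 34.3 FPKM in 4KD and 44.8 and 23.5 FPKM in NC.

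No single comparison called Zp3 in limma. It was higher by 1.74 (SE 0.467, adjusted p = 0.0756) after Nr5a2 KD, by 1.52 (adjusted p = 0.695), 1.46 (adjusted p = 0.69) and 1.64 (adjusted p = 0.545) in the 3KD pools with Nr5a2 siRNA in the order above, and by 0.56 (adjusted p = 0.928) in 4KD pools, while it was lower by 0.55 (adjusted p = 1) with Rarg, Nr1h3 and Nr2c2 siRNAs. After Nr5a2 KD it was called with median-ratio scaling (2.04, limma, adjusted p = 0.0199) and among genes with a mean of at least 5 FPKM (1.74, limma, adjusted p = 0.0491). At 2C, Zp3 was at 28.6 and 51.8 FPKM in KD pools and at 38.9 and 36.5 FPKM in NC pools, which overlapped. The other zona genes had little transcript at 8C. Zp1 was at most 2.57 FPKM in the 10 pools with Nr5a2 siRNA, and Zp2 ran from 0 through 2.99 to 7.65 FPKM there, against 0.199 to 2.82 FPKM in NC pools. In the 3KD pools with Nr5a2 siRNA, Zp2 differed from NC by 1.10, 1.42 and 1.60 and was not called (limma, adjusted p = 0.781, 0.578 and 0.38). The cumulus and granulosa markers summed to 3.42 to 20.4 FPKM in the 10 pools with Nr5a2 siRNA and to 4.47 to 14.5 FPKM in the NC pools.

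**Figure D3:**
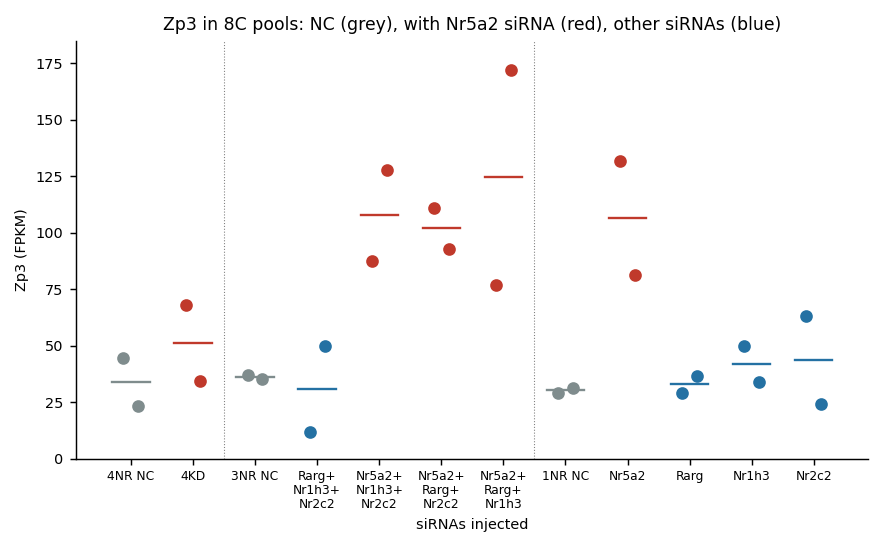
Zp3 in FPKM in each of the 24 pools at 8C, by the siRNAs injected; dots are libraries, short lines are means, and dotted lines part the 4KD, 3KD and single KD experiments. Pools with Nr5a2 siRNA (red) of the 3KD and single KD experiments lie between 77.1 and 172 FPKM, all other pools of these experiments at or under 63.3 FPKM.

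In single BE_sg embryos the members also fell. The summed level ran from 4600 through 14300 to 21700 FPKM in 14 embryos at 2C and from 149 through 244 to 1330 FPKM in 14 at 8C. In limma 34 of 37 members were called lower and 0 higher (median -2.95 beside -0.24 for all genes; 64.4% of all genes called, 38.7% lower). Zp3 (-0.77, adjusted p = 0.153), Figla (-0.39, adjusted p = 0.278) and Ddx4 (-0.31, adjusted p = 0.515) were not called in limma. Omt2a fell by 7.36 (SE 0.547, limma, adjusted p = 7.8e-18) and Omt2b by 6.64 (SE 0.531, limma, adjusted p = 1.0e-16). A difference between this fall and that of the controls was called for 0 of 37 members in limma ( 3 at an unadjusted p under 0.05, median difference 0.25 beside -0.02; 0.0385% of all genes called). The lowest p was that of Dazl (1.36, SE 0.555, limma, adjusted p = 0.404).

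At 2C the BE_sg embryos differed from the controls in 0 of 37 members in limma (5 at an unadjusted p under 0.05, median 0.26 beside 0.07; 0.00805% of all genes called). The largest of the 5 differences was that of Gdf9 (2.09), which ran from 145 through 408 to 2570 FPKM in BE_sg embryos and from 3.13 through 110 to 736 FPKM in controls.

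At 8C the summed level of the members was higher in BE_sg than in most control embryos, while 1 of 27 members tested was called. The summed level was 149 to 1330 FPKM (median 244) against 50.6 to 291 FPKM (median 101) in the 16 controls. All 14 BE_sg embryos lay above all 8 BE embryos (at most 148 FPKM), while sg embryos 2 and 7 (191 and 291 FPKM) lay within the BE_sg range. Without the 2 embryos with a 4-cell name (471 and 1330 FPKM) the BE_sg range was 149 to 456 FPKM (median 210). In eBE libraries it was 153 to 456 FPKM against 50.6 to 191 FPKM, and in BE4 libraries 149 to 407 FPKM against 57.6 to 291 FPKM. Genes of the 2-cell stage summed to 3.02 to 395 FPKM (median 9.95) in 8C BE_sg embryos and to 1.02 to 103 FPKM (median 8.48) in 8C controls. They summed to 246 and 58.1 FPKM in BE_sg embryos 13 and 14 with a 4-cell name. Without these the BE_sg range was again 3.02 to 395 FPKM, with a median of 9.22 FPKM. The part of stage in the difference was not tested.

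**Figure D4:**
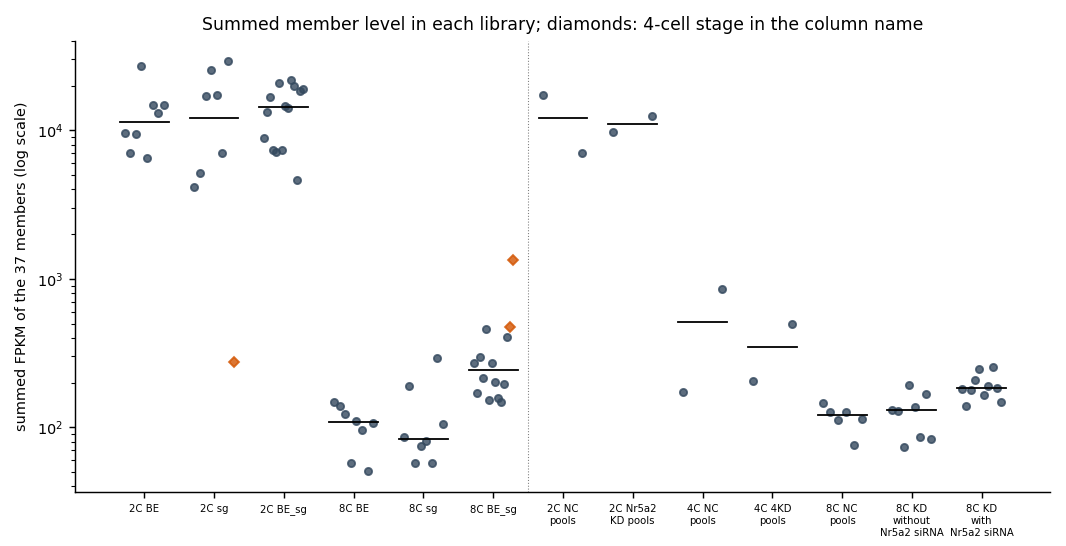
Summed FPKM of the 37 members in each library on a log axis, single embryos left of the dotted line and pools right of it; bars are medians and diamonds mark libraries with a 4-cell name. The 8C BE_sg embryos (149 to 1330 FPKM) lie higher than most 8C controls (50.6 to 291 FPKM), and all stay under every 2C library without a 4-cell name.

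By single members, 33 of 37 had a higher mean in BE_sg than in control embryos at 8C, and 33 of 37 without the 4-cell names. Over all genes above 0, the mean was higher in 59.9% and 52.3%. In eBE libraries it was 33 of 37 beside 57.4%, and in BE4 libraries 23 of 37 beside 44.7%. In limma 27 members were tested, of which 4 passed the filter on low values only through the BE_sg embryos, and 10 were too low to be tested. Gdf9 was the 1 member called, beside 0.164% of all genes called and 0.133% called higher. Without adjustment, p was under 0.05 in limma for 17 of the 27 members, beside 1058 of all 9760 genes. The difference was above 0 for 26 members and below 0 for 1, with a median of 0.79 beside 0.015 for all genes. These counts include the 4 members that passed the filter only through BE_sg.

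Gdf9 ran from 7.33 through 14.4 to 92.5 FPKM in the 14 BE_sg embryos and from 0.473 through 2.59 to 21.3 FPKM in the 16 controls. Most controls lay under the lowest BE_sg embryo, and BE embryos 2 and 6 and sg embryos 7 and 8 overlapped with the BE_sg range. The difference was 1.84 (SE 0.376, limma, adjusted p = 0.0459). It was 2.29 within the eBE run (limma, adjusted p = 0.0124) and 0.96 in the BE4 libraries alone (limma, adjusted p = 0.999). Without the 4-cell-named embryos it was 1.62 and was no longer called (limma, adjusted p = 0.171). The share of the Gdf9 mean of 2C left at 8C was 3.03% in BE_sg embryos and 2.56% in controls, and at 2C the difference between BE_sg and control embryos was 2.09 and not called (limma, adjusted p = 0.198).

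Higher means in BE_sg embryos were not limited to members that were abundant at 2C. The 8C mean was 3.63 times that of controls for Zar1 (19.5 FPKM in 2C controls) and 1.35 times for Npm2 (99.4 FPKM). Among abundant members, Oosp1 ran from 1.25 through 19.5 to 74.0 FPKM in BE_sg embryos against 0 through 4.21 to 19.2 FPKM in controls (1.81, SE 0.452, limma, adjusted p = 0.112). Omt2b ran from 5.76 through 50.1 to 596 FPKM against 2.88 through 11.9 to 55.1 FPKM (1.92, SE 0.504, limma, adjusted p = 0.15). Omt2a ran from 1.5 through 34.9 to 231 FPKM against 0 through 5.42 to 34.0 FPKM (1.90, SE 0.529, limma, adjusted p = 0.217). In all 3 the groups overlapped, and none was called. Without the 4-cell names, the share of the 2C mean left in BE_sg embryos was 1.77% for Oosp1, 1.03% for Omt2b and 0.634% for Omt2a. With them it was 2.26%, 1.73% and 1.01%. Zp1 was less abundant at 2C, with a mean of 28.9 FPKM in controls. At 8C it ran from 0.183 to 31.6 FPKM in BE_sg embryos against 0 to 6.64 FPKM in controls, and was not called either. Its 2 highest values, 15.4 and 31.6 FPKM, were those of the embryos with a 4-cell name. The other BE_sg embryos reached at most 6.71 FPKM. Btg4 ran from 0 through 3.17 to 121 FPKM and Bmp15 from 0.523 through 1.78 to 9.74 FPKM in BE_sg embryos. Zp3 ran from 0 through 37.1 to 113 FPKM against 2.65 through 11.9 to 133 FPKM (0.84, SE 0.523, limma, adjusted p = 0.605). The share of the 2C mean left at 8C had a median of 6.3% over the 37 members in BE_sg embryos (4.44% without the 4-cell names), beside 3.3% in controls, with 14 members under 5% (21 without the 4-cell names) beside 22.

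**Figure D5:**
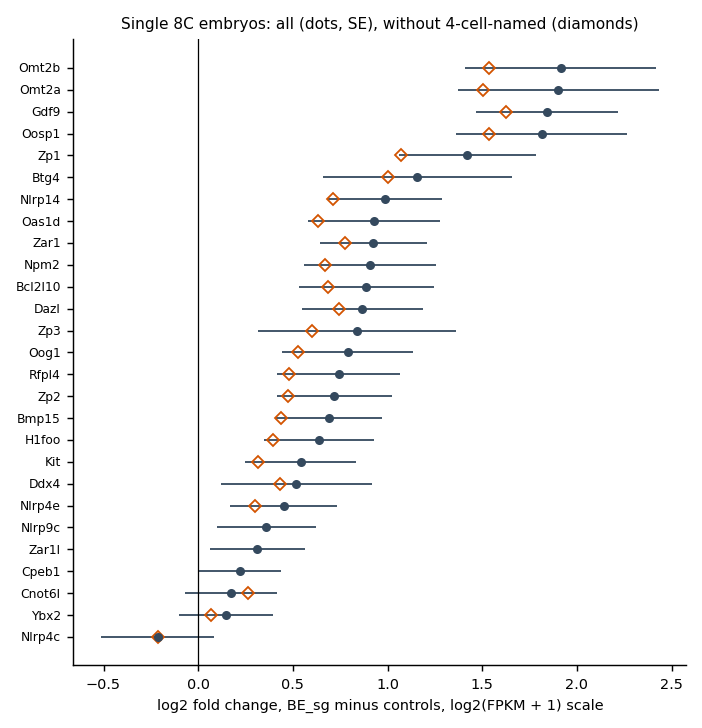
Difference between BE_sg and control embryos at 8C on the log2(FPKM + 1) scale for the 27 members tested, with all libraries (dots, bars are SE) and without those with a 4-cell name (open diamonds). Gdf9 at 1.84 is the member called with all libraries; it is at 1.62 without them.

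Other genes of the same pathways were counted from lists chosen beside the members. Of 28 genes of the mRNA decay machinery (subunits of CCR4-NOT, the PAN and decapping enzymes, uridylases and their adaptors), 26 were tested. From 2C to 8C in single controls 12 were called lower and 8 higher in limma, beside 43.6% lower and 72.5% in either direction over all genes, and the median of -0.27 lay near the -0.31 of all genes. Tob2 and Tob1, adaptors related to BTG4, fell by 3.75 and 2.85, and Dcp2, the decapping enzyme, by 3.02. Parn, a deadenylase, rose by 1.34 and Cnot11, a subunit of CCR4-NOT, by 1.20. In NC pools 7 of the 26 were called lower and 3 higher over the same stages, beside 29.5% of all genes lower and 48.3% in either direction. These shares are near those of all genes. No gene of this list was called in any knockdown or editing comparison, beside at most 2.75% of all genes (Nr5a2 KD at 8C). So few calls do not show that levels were alike. Rqcd1 of this list differed by -1.48 after Nr5a2 KD at 8C (limma, adjusted p = 0.051). Of 15 other maternal genes, 12 were called lower in single controls, beside 43.6% of all genes, with a median of -2.64. The 3 called higher were Khdc3 (5.09), Dppa3 (2.19) and Trim28 (2.02). Khdc3, a component of the subcortical maternal complex, was also called lower after Nr5a2 KD at 8C (-6.42, limma, adjusted p = 0.00015).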

How the data were processed

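RNA-seq of mouse embryos was analysed from the FPKM tables that the authors deposited. According to the methods, the authors trimmed the reads, used TopHat for mapping to mm9 and Cufflinks with UCSC refFlat genes for FPKM. FPKM were deposited without read counts, so no interval or detection limit can be given, and the relative depth comes from the spacing of values under 0.3.

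Log2(FPKM + 1) values entered two-sided limma fits with a trend (limma 3.58.1, R 4.3.3). Genes with a mean of at least 1 FPKM in at least 1 group were kept and p-values were Benjamini-Hochberg adjusted over all of them; a gene was called at an adjusted p under 0.05. Such fold changes understate low genes. The 60 single embryos formed 1 fit for stage and 1 fit per stage for editing. The 32 pools formed 1 fit for stage and 1 fit per KD experiment. Fits were tested on simulated data. Named members are the 5 with the largest fall, those not called, the 5 with most left and any called elsewhere; the rest are given more briefly. Zp3 in pools was added after its values were seen. Members and lists were chosen with earlier results of these data known. Alternatives were a pseudocount of 0.1, other filters, median-ratio scaling, the methods' limits, a replicate block, control groups alone, the editor run as a term, and leaving out libraries; those within a run and without all doubted libraries were added after seeing the data. The run of sg libraries was taken from their library numbers. Nothing in the labels ties replicate numbers together. In the 3KD experiment the deviations of same-numbered pools correlated at 0.278 to 0.513 over all 10 pairs of groups, so its blocked counts are given beside the others.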

Additional observations from a re-analysis of the deposited data

Results flagged for a closer look

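In groups of 8 single embryos, the highest or lowest embryo was compared with the nearest of the others, and its gap was set against the range of the group by Dixon's rule. Each group was examined for the summed level and for the named members, on the log2(FPKM + 1) scale. Of 48 such tests, 7 singled out an embryo. The tests share embryos and the sum contains the members. The chance rate of about 1 in 20 for independent tests therefore does not apply directly. At 2C, sg embryo 8, whose name in the files gives the 4-cell stage, was lowest in the summed level of the members (274 FPKM, next 4180), in Omt2a (42.9 FPKM, next 1380) and in Cnot6l (0.455 FPKM, next 4.12). BE embryo 2 at 2C was highest in Zp3 (117 FPKM, next 43.4). At 8C, sg embryo 7 was highest in Npm2 (94.6 FPKM, next 12.9), Cnot6l (7.89 FPKM, next 1.22) and Bmp15 (4.94 FPKM, next 1.1), and its summed level of 291 FPKM was the highest of the 8C controls.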

How the results depend on the processing

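Each called fall from 2C to 8C or from 2C to 4C kept its direction under every alternative in which the member was tested. The same held for Zp3 and Ddx4, not called, in single controls. Members not called in NC pools or in BE_sg embryos were not followed in this way. The number of members called lower in single controls was 29 to 37, in BE_sg embryos 29 to 35, in NC pools from 2C to 8C 27 to 33 and from 2C to 4C 26 to 31. The call of 1 member (Gdf9) in 8C BE_sg embryos was not kept in most alternatives. It became 0 with a pseudocount of 0.1, no filter, a mean of at least 5 FPKM, median-ratio scaling, the limits of the methods, without the 4-cell-named libraries, with the run as a term, without all doubted libraries, within the BE4 run, and with BE or sg embryos alone as control. It became 2 within the eBE run (Gdf9 and Zp1) and 4 without the libraries with the lowest FPKM sums (Gdf9, Zp1, Omt2b and Oosp1). Nr5a2 KD at 8C gave 1 member (Zp3) among genes with a mean of at least 5 FPKM and 1 with median-ratio scaling. Leaving out 1 pool at a time, the difference in decline between Nr5a2 KD and NC pools gave 0 to 1 members, Nobox without 2C NC pool 1, where 421 genes were called in place of 96. Median-ratio scaling moved the median of all genes from -0.31 to -0.49 in single controls, from -0.16 to -0.40 between 2C and 4C NC pools, and from -0.22 to 0.01 for Nr5a2 KD at 8C. Causes were not tested.

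With the replicate number as a block, the count in 8C BE_sg embryos was 0, and no other count of members changed. The 3KD pools with Nr5a2 siRNA then gave 45, 35 and 65 genes in place of 6, 1 and 0, and the Nr2c2 KD pools 1 in place of 8, none of them members. Correlations of same-numbered pools ran from -0.297 to 0.346 in the 4KD experiment and from -0.0403 to 0.141 in the single KD experiment, where the numbers were not taken as pairs.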
